A study of Mus musculus with 12 samples.

Results

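Elastic fibres and their microfibrils were examined through 10 genes in bulk RNA sequencing of mouse lung fibroblasts. The genes are Eln, Fbn1, Fbln1, Fbln2, Fbln5, Mfap2, Mfap4, Mfap5, Efemp1 and Emilin1. They were chosen by name, for what their proteins do, with earlier results of these data known. Each matched 1 row by symbol, 10 of 20606 genes in the table. The 4 groups were M-MF and M-MyoF, from mice with lung metastasis, and N-MF and N-MyoF, from normal mice, with 3 libraries each. MF stands for the matrix fibroblasts of the series title, MyoF is the other purified subgroup, and the series concerns breast cancer spread to the lung. The labels used here give no strain, age, tumour line or sorting gate, and do not say whether the libraries of a group came from separate mice. The p-values rest on the spread among 3 libraries per group, and that spread may be technical.

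An elastic fibre has a core of cross-linked elastin laid on a scaffold of fibrillin microfibrils, and it gives the lung its recoil. Fibulins and microfibril-associated proteins join the core to the scaffold, and lysyl oxidases cross-link tropoelastin, the soluble elastin monomer. Most elastin is laid down during lung growth, by fibroblasts, myofibroblasts and smooth muscle cells, and the fibres then last for much of an animal's life. Microfibrils also hold latent TGF-beta through the LTBP proteins.

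Values are FPKM, fragments scaled for transcript length and library size, so levels can be set side by side between genes. The read depth is unknown. Library sums of FPKM ran from 528176 to 618478, with 11466 to 12682 genes at 1 FPKM or more. The fibroblast markers Col1a1, Col1a2, Pdgfra, Dcn and Lum summed to 10967 to 11002 FPKM in M-MF, 17399 to 17578 in N-MF, 1327 to 1338 in M-MyoF and 2516 to 2552 in N-MyoF. The 8 myofibroblast markers ordered the subgroups the other way, with 403 to 408 FPKM in M-MF, 873 to 890 in N-MF, 3661 to 3725 in M-MyoF and 6099 to 6190 in N-MyoF. The MyoF libraries also held epithelial transcripts, with 6 markers summing to 15518 to 16044 FPKM in M-MyoF and 18677 to 19175 in N-MyoF. The sums were lower in MF, with 2883 to 2900 in M-MF and 2240 to 2290 in N-MF. Most of the M-MyoF sum was Scgb1a1 (12279 FPKM) and Sftpc (3103), while Epcam, Cdh1 and Foxj1 had 6.15, 5.6 and 1.43 there. Krt8 was higher with metastasis in both subgroups, at 387 in M-MyoF against 23 in N-MyoF, and 166 in M-MF against 5.31 in N-MF. In bulk samples, fewer cells of a type and less RNA per cell cannot be told apart.

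The 10 genes together made up a smaller part of the summed FPKM in the metastasis libraries than in the normal libraries of each subgroup, and a smaller part in MyoF than in MF. They summed to 2970 ± 11.9 FPKM in M-MF (SD, n = 3), against 5371 ± 28 FPKM in N-MF. In M-MyoF they summed to 914 ± 18.3 FPKM, against 1326 ± 3.62 FPKM in N-MyoF. As a share of all FPKM this was 0.518% in M-MF against 1.01% in N-MF, and 0.148% in M-MyoF against 0.246% in N-MyoF. The ranges of these sums did not overlap between any of the groups. In MF the largest falls in FPKM were those of Mfap4, at 504 in M-MF against 1550 in N-MF, and Fbln1, at 354 against 1159. Fbn1, Efemp1 and Emilin1 were higher in M-MF than in N-MF.

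The order of the genes differed between groups. Mfap5 was the most abundant of the 10 in M-MF, where it held 23.9% of their summed mean level, and Mfap4 in N-MF, with 28.9%. Eln held first place in both MyoF groups, with 28.4% in M-MyoF and 27.7% in N-MyoF, but 10.1% in M-MF and 10.9% in N-MF. Fbn1, the scaffold of the microfibril, was the lowest or the next to lowest in each group. Fbln2 held 6.58% in M-MyoF and 0.712% in N-MyoF, where it came last.

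**Figure D1:**
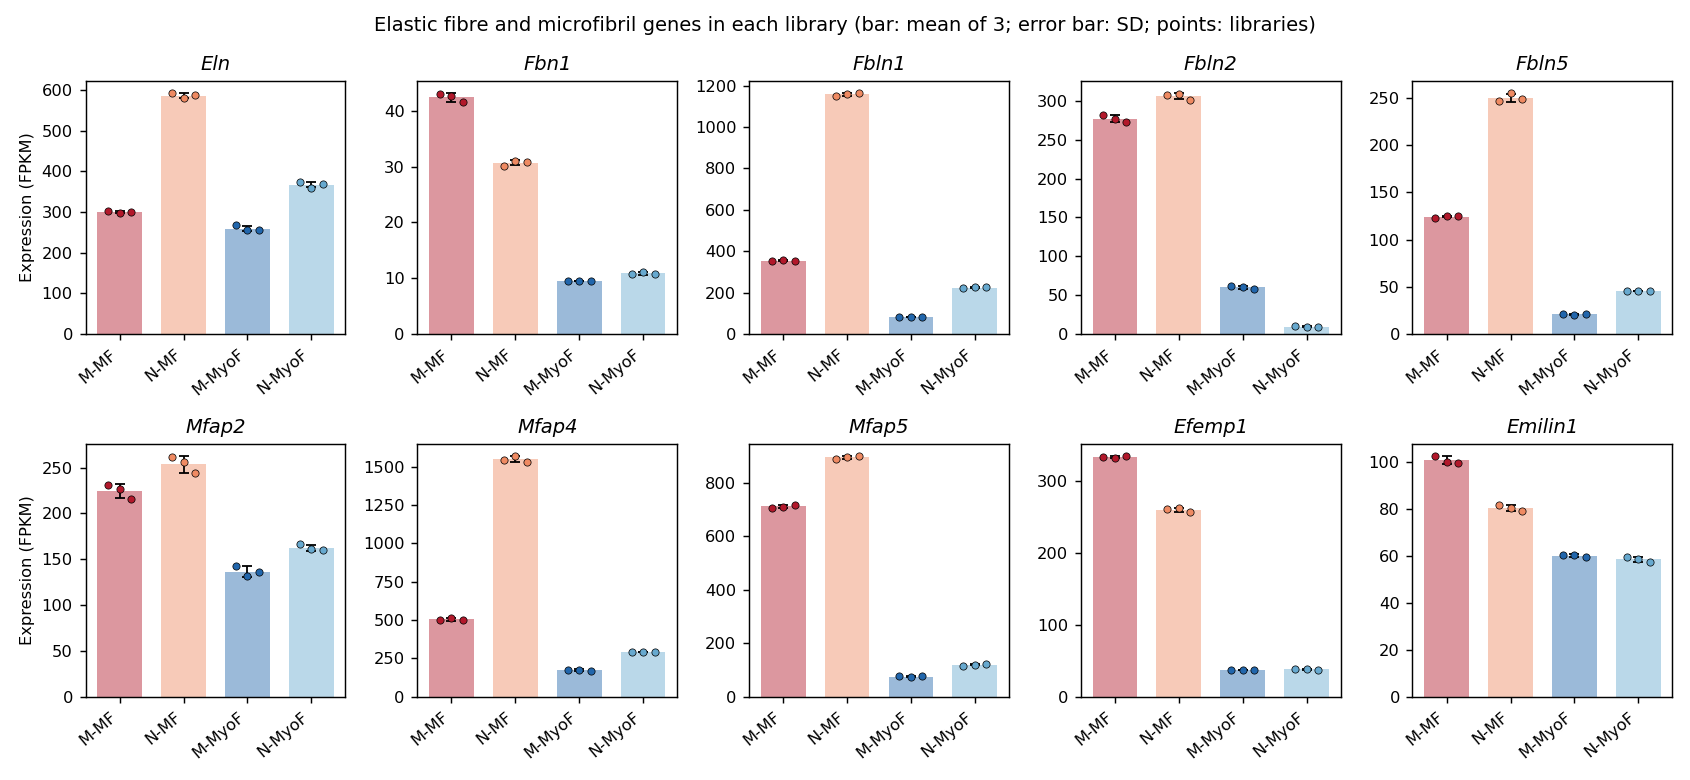
Expression of each of the 10 genes in FPKM (y axis, from 0) in the 12 libraries, by group on the x axis. Bars are means of 3 libraries, error bars SD and points single libraries. For 8 of the genes no groups overlap, and Efemp1 and Emilin1 overlap only between M-MyoF and N-MyoF. Of all genes tested, 79.8% did not overlap in M-MF against N-MF and 82.2% in M-MyoF against N-MyoF. The share was 85.6% in M-MF against M-MyoF and 82.4% in N-MF against N-MyoF. The share of all genes with no overlap between any groups was not computed.

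**Figure D2:**
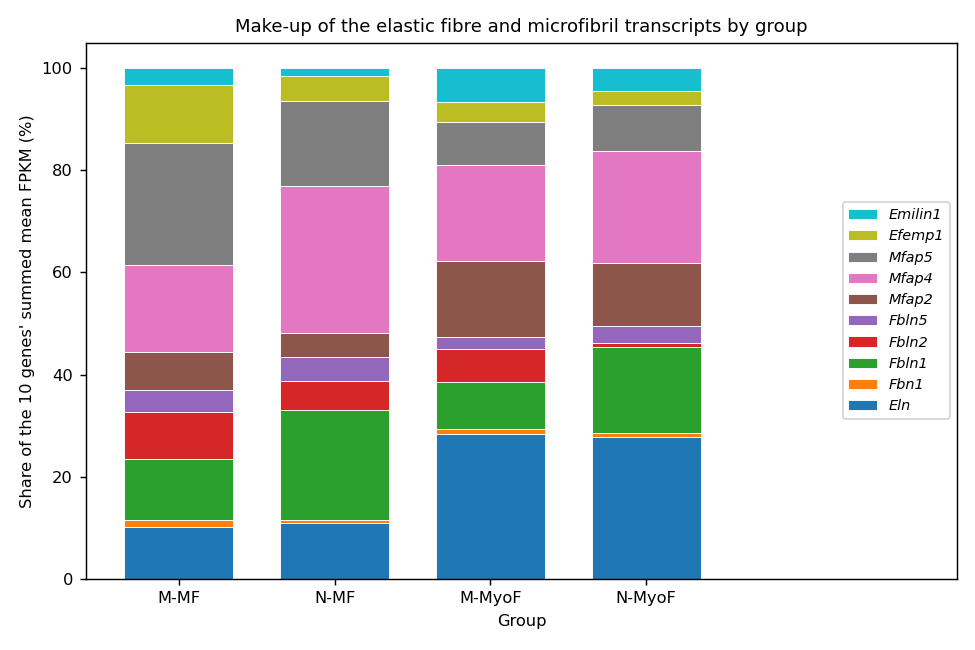
Share of each gene, in percent (y axis), in the summed mean FPKM of the 10 genes for the 4 groups (x axis). Eln takes 28.4% and 27.7% in the M-MyoF and N-MyoF bars, and Mfap4 takes 17% in M-MF against 28.9% in N-MF.

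Metastasis and normal lungs were compared first in MF, the subgroup with the higher levels of these genes. In M-MF against N-MF all 10 genes changed, 7 down and 3 up, at a limma adjusted p under 0.05. Of the 13300 genes tested 78.1% changed, 31.8% down and 46.3% up. Among these calls 59.3% were higher in M-MF, and 49.9%, 48.5% and 40.4% after rescaling the libraries to equal sums, by median ratios or by quantiles. Fbln1, Mfap4 and Fbln5 fell at least 2-fold, as 2.54% of all genes did, and no member rose 2-fold, as 9.32% of all genes did, so 3 of the 10 changed 2-fold against 11.9% of all genes. The median log2 fold change was -0.26 over the 10 genes and 0.082 over all genes tested. Library values did not overlap between the groups for any of the 10, nor for 79.8% of all genes.

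In the other subgroup, M-MyoF against N-MyoF, 7 of the 10 genes fell, Fbln2 rose, and Efemp1 and Emilin1 did not pass. Of all genes tested 80.7% changed, 31.6% down and 49.1% up. Among these calls 60.8% were higher in M-MyoF, and 45.7%, 46% and 41.1% after the rescalings, under which 9 of the 10 genes fell. Fbln1 and Fbln5 fell at least 2-fold, as 3.24% of all genes did, and Fbln2 rose by more than that, as 11.4% did, which makes 3 of the 10 against 14.6% of all genes. The median was -0.38 over the 10 genes and 0.11 over all genes. The 3 libraries of each group did not overlap for 8 of the 10, and for 82.2% of all genes.

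**Figure D3:**
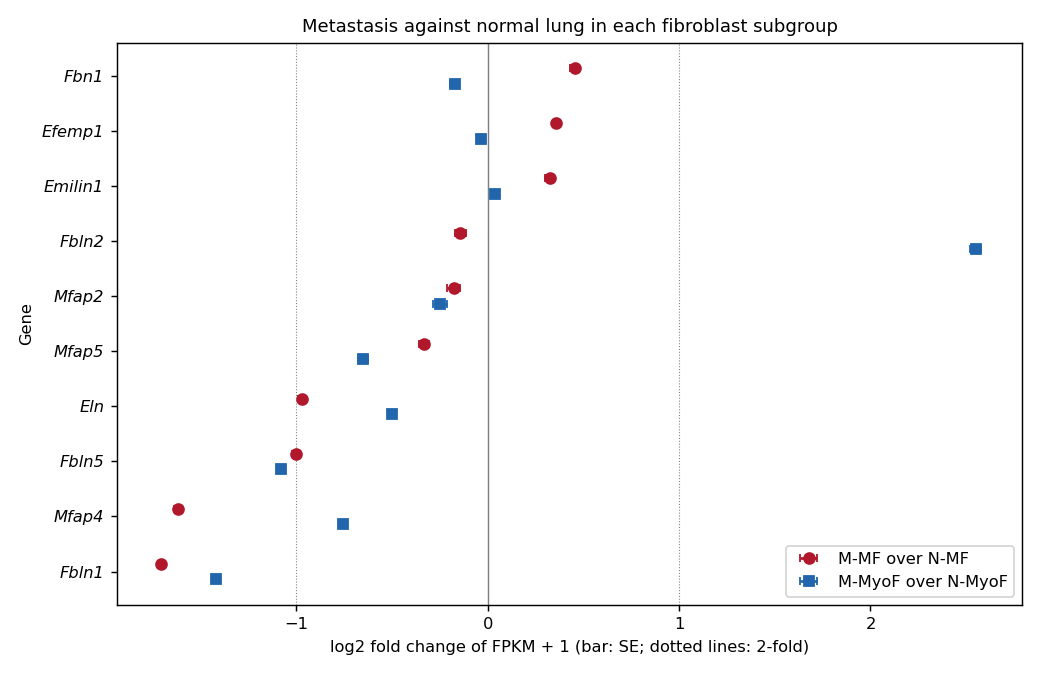
Log2 fold change of FPKM + 1 (x axis, bars are SE) for each gene (y axis) in M-MF over N-MF (circles) and M-MyoF over N-MyoF (squares). Fbln1, Mfap4, Fbln5 and Eln lie left of 0 in both, and Fbln2 lies at -0.14 in MF and 2.55 in MyoF.

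Eln, which encodes tropoelastin, was lower in both metastasis groups. It had 302, 297 and 299 FPKM in the M-MF libraries, against 592, 580 and 587 FPKM in the N-MF libraries. Its log2 fold change was -0.97 ± 0.0207 (SE, n = 3 per group; limma adjusted p = 2.08e-13), just short of 2-fold, and -1.08, -1.10 and -1.14 after the rescalings. The M-MyoF libraries had 267, 255 and 256 FPKM, against 373, 360 and 369 FPKM in N-MyoF, with a log2 fold change of -0.50 ± 0.0207 (limma adjusted p = 1.13e-10). The groups did not overlap in either subgroup, and the change was larger in MF (difference -0.47 ± 0.0292, limma adjusted p = 2.94e-08). RefSeq places Eln at chromosome 5, 134702595 to 134747368 (GRCm38), where the long non-coding gene Gm30003 overlaps it. Gm30003 has no row in the table, and since the library type keeps no strand, reads of the overlap could belong to either.

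The microfibril scaffold gene Fbn1, which encodes fibrillin-1, moved in opposite directions in the subgroups. It had 43, 42.7 and 41.5 FPKM in M-MF, against 30.2, 31.1 and 30.9 FPKM in N-MF. That is a rise of 0.45 ± 0.0256 on the log2 scale (limma adjusted p = 3.16e-09). Among M-MyoF libraries it had 9.54, 9.51 and 9.55 FPKM, against 10.8, 11.1 and 10.7 FPKM in N-MyoF, a log2 fold change of -0.17 ± 0.0256 (limma adjusted p = 3.8e-05). The M-MF libraries were the highest of the 12 and the M-MyoF libraries the lowest. The ratio of Eln to Fbn1 was 7.06 ± 0.131 in M-MF, against 19.1 ± 0.493 in N-MF, and 27.2 ± 0.689 in M-MyoF, against 33.8 ± 1.22 in N-MyoF (SD, n = 3). The ratio of FPKM was thus lower in the metastasis libraries of each subgroup, and library values did not overlap.

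Mfap2 and Mfap5 encode the small glycoproteins MAGP-1 and MAGP-2, which sit along fibrillin microfibrils. Mfap5 had 706, 709 and 718 FPKM in M-MF, against 889, 896 and 900 FPKM in N-MF, a log2 fold change of -0.33 ± 0.0256 (limma adjusted p = 7.74e-08). Mfap5 had 76.8, 71.8 and 77.4 FPKM in M-MyoF, against 116, 120 and 121 FPKM in N-MyoF, a log2 fold change of -0.65 ± 0.0256 (limma adjusted p = 7.08e-11). Both MyoF groups lay far below both MF groups, and the fall was larger in MyoF (difference 0.32 ± 0.0363, limma adjusted p = 7.39e-06). Mfap2 changed less, with 231, 226 and 215 FPKM in M-MF against 262, 256 and 244 FPKM in N-MF (log2 fold change -0.18 ± 0.0351, limma adjusted p = 0.000472). It had 143, 131 and 136 FPKM in M-MyoF against 166, 161 and 160 FPKM in N-MyoF (-0.25 ± 0.0351, limma adjusted p = 2.53e-05). The lowest N library stood above the highest M library in each subgroup. The ratio of Mfap5 to Mfap2 was 3.18 ± 0.139 in M-MF against 3.53 ± 0.150 in N-MF (SD, n = 3). In MyoF it was 0.552 ± 0.0163 in M-MyoF against 0.733 ± 0.0292 in N-MyoF, so that Mfap2 was the more abundant in MyoF and Mfap5 in MF.

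Mfap4, a fibrinogen-related protein that binds elastin and fibrillin, had the highest level of any member in any group. It stood at 501, 513 and 498 FPKM in M-MF, against 1545, 1572 and 1532 FPKM in N-MF. The log2 fold change was -1.62 ± 0.0214 (limma adjusted p = 2.65e-15), or 3.07-fold lower, and the highest M-MF library lay far below the lowest N-MF library. Its M-MyoF libraries had 176, 174 and 166 FPKM, against 289, 292 and 292 FPKM in N-MyoF, with -0.75 ± 0.0214 (limma adjusted p = 2.68e-12). Emilin1 encodes an elastin-associated glycoprotein that, in mice, restrains TGF-beta activation. It rose in M-MF, with 102, 99.9 and 99.3 FPKM against 81.3, 80.2 and 78.9 FPKM in N-MF (0.32 ± 0.0214, limma adjusted p = 1.62e-08). In MyoF it had 60.2, 60.3 and 59.2 FPKM in M-MyoF, against 59.3, 58.7 and 57.2 FPKM in N-MyoF, where the groups overlap. Its log2 fold change there was 0.037 ± 0.0214 (limma adjusted p = 0.129), and it passed with the library number as a block (adjusted p = 0.0452), over a range of 6.51e-08 to 0.384 across 22 alternatives. After each of the 3 rescalings it passed as lower instead, at -0.15, -0.15 and -0.24.

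Fibulins are secreted proteins with calcium-binding EGF repeats that bridge elastin, microfibrils and cells. Fbln1, found in elastic fibres and basement membranes, had the largest fall of the 10 genes in both subgroups, except that Mfap4 fell more in M-MF with quantile normalization (-1.89 against -1.82). It had 353, 357 and 352 FPKM in M-MF, against 1152, 1159 and 1164 FPKM in N-MF (-1.71 ± 0.0154, limma adjusted p = 1.01e-16). It had 83.8, 83.9 and 82.1 FPKM in M-MyoF, against 221, 226 and 225 FPKM in N-MyoF (-1.42 ± 0.0154, limma adjusted p = 4.9e-16). No library of a metastasis group reached its normal group in either subgroup. Fbln5, which binds tropoelastin and integrins and without which mice form disordered elastic fibres, fell in both subgroups. It had 123, 125 and 125 FPKM in M-MF, against 247, 255 and 249 FPKM in N-MF (-1.003 ± 0.0202, limma adjusted p = 1.2e-13). It had 21.1, 20.4 and 21.1 FPKM in M-MyoF, against 45.3, 45 and 45.2 FPKM in N-MyoF (-1.08 ± 0.0202, limma adjusted p = 5.52e-14). The groups did not overlap. In MF the change of Fbln5 lies at the 2-fold line, and it falls short of it with a pseudocount of 5 (-0.98), without the first M-MF library (-0.997) or without the second N-MF library (-0.99). In MyoF a pseudocount of 5 also takes it under 2-fold (-0.96).

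Fbln2 was the member whose change depended most on the subgroup. Its protein, fibulin-2, binds fibronectin, fibrillin and basement membrane proteins. It had 61.1, 61 and 58.2 FPKM in M-MyoF, against 9.88, 9.37 and 9.07 FPKM in N-MyoF, a 5.85-fold rise (2.55 ± 0.0292, limma adjusted p = 7.55e-16). In M-MF it had 281, 277 and 273 FPKM, against 308, 309 and 301 FPKM in N-MF (-0.14 ± 0.0292, limma adjusted p = 0.000617). The M-MyoF libraries thus lay far above those of N-MyoF but below every MF library. The ratio of Fbln1 to Fbln2 was 1.39 ± 0.0213 in M-MyoF against 23.8 ± 1.26 in N-MyoF, and 1.28 ± 0.0197 in M-MF against 3.79 ± 0.0667 in N-MF (SD, n = 3).

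Efemp1 encodes fibulin-3, whose loss in mice weakens fascia. It had 333, 332 and 335 FPKM in M-MF, against 261, 262 and 257 FPKM in N-MF, a rise of 0.36 ± 0.0185 (limma adjusted p = 1.31e-09). Its M-MyoF libraries had 37, 37.1 and 37.6 FPKM, against 38, 39 and 37.6 FPKM in N-MyoF, where the groups overlap (-0.035 ± 0.0185, limma adjusted p = 0.0943). It passed there as lower after the same rescalings, at -0.22, -0.22 and -0.34, and without the third N-MyoF library, at -0.047 (adjusted p = 0.05 after rounding). Its adjusted p ran from 3.68e-09 to 0.327 over all alternatives.

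Sequences around a listed start site of these fibulins are shown because Fbln1 and Fbln5 fell in both subgroups while Fbln2 rose in MyoF. They are RefSeq windows on GRCm38.p6, from 250 bases before to 50 after a listed start site, read on the gene's own strand. The RefSeq span of Fbln2 begins earlier, at 91212460, so its whole window lies within the gene. The Mfap2 and Emilin1 windows also lie within their genes. Capitals mark matches, on either strand, to the TATA motif TATAAA, the CCAAT box, the GC box GGGCGG, the AP-1 motif TGANTCA or the E-box CACGTG, and no matches overlap in these windows.
Fbln1, chr15:85205699-85205998, plus strand: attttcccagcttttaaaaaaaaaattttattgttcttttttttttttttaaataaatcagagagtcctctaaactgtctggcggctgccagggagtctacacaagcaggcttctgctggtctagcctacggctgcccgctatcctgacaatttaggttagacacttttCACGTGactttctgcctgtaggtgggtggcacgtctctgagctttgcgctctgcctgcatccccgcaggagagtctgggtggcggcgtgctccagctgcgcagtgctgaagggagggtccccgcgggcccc
Fbln2, chr6:91212514-91212813, plus strand: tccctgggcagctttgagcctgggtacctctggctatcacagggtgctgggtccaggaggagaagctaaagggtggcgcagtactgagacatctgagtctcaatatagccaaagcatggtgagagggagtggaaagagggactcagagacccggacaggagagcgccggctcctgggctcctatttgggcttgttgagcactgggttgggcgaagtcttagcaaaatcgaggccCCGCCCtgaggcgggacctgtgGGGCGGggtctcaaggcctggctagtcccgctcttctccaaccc
Fbln5, chr12:101819070-101819369, minus strand: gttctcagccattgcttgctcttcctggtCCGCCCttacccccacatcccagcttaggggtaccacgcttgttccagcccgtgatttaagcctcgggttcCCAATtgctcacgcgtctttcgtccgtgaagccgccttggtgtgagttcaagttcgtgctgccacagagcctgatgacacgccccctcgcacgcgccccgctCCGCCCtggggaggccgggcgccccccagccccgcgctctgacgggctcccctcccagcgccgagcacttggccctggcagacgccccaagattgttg
For Fbln1 and Fbln5 the table lists 2 starts each and the first was used. The Fbln2 window holds 2 GGGCGG matches, at positions -16 and 7 counted from the start site, and the Fbln5 window 2, at -221 and -48, with a CCAAT match at -150. The Fbln1 window holds a CACGTG match at -81 and no GGGCGG. Of 32851 windows of this length, 35.7% hold the GC box, 37.4% the CCAAT box, 7.15% this E-box, 7.81% the AP-1 motif and 13.6% the TATA motif. The G and C content was 51.7% for Fbln1, 60.3% for Fbln2 and 65.7% for Fbln5, with 12, 10 and 24 CpG pairs, against medians of 52.7% and 7 over all windows. None of the 7 members with a listed window, the other 4 being Fbn1, Mfap2, Efemp1 and Emilin1, has a TATAAA match in it. A match is a stretch of letters and shows no binding. Eln, Mfap4 and Mfap5 had no entry.

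The metastasis effects of the subgroups were compared directly, as the difference of their log2 fold changes. This differed from 0 for 9 of the 10 genes, and for 64.4% of all genes tested. It was positive for 5 (26.4% of all genes) and negative for 4 (38% of all genes), and for Mfap2 it was 0.070 ± 0.0497 (limma adjusted p = 0.233), though it passed at 0.15 with equal sums and 0.13 with median ratios. Among all calls of this difference 41% were positive, and 52.3%, 49.5% and 47.2% after the rescalings. Fbln2 stood at -2.69 ± 0.0413 (limma adjusted p = 7.77e-14), the only member past 2-fold, where 3.27% of all genes lay as negative and 3.83% as positive, 7.1% in all. Mfap4 (-0.86 ± 0.0303) and Eln had the next largest negative values, and Fbln1 had -0.29 ± 0.0218. Fbn1 had the largest positive value, 0.63 ± 0.0362, followed by Efemp1 (0.39 ± 0.0261), Mfap5 (0.32 ± 0.0363) and Emilin1 (0.29 ± 0.0302). The value for Fbln5, 0.078 ± 0.0286 (limma adjusted p = 0.0311), did not pass when any 1 of 7 libraries was left out (adjusted p of 0.0515 to 0.0758), nor without the libraries numbered 3 (0.14). Over all alternatives its adjusted p ran from 0.000539 to 0.47.

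MF and MyoF were then compared within each kind of lung. In M-MF against M-MyoF all 10 genes were higher, as were 19.1% of all genes, while none was lower, as 66% of all genes were (85.1% either way). In N-MF against N-MyoF all 10 were higher too, as were 24.5% of all genes, while 57.6% of all genes were lower (82% either way). Among all calls 22.4% were higher in M-MF and 29.8% in N-MF, and up to 47.3% and 52.1% after the rescalings. Library values of the subgroups did not overlap for any of the 10, nor for 85.6% of all genes in metastasis and 82.4% in normal lungs. At least 2-fold higher were 7 of the 10 in metastasis (4.74% of all genes, with 8.82% lower and 13.6% either way) and the same 7 in normal lungs (4.88% of all genes, with 11.9% lower and 16.8% either way). These were Fbn1, the 4 fibulin genes Fbln1, Fbln2, Fbln5 and Efemp1, Mfap4 and Mfap5. The median log2 fold change was 2.06 over the 10 genes in M-MF against M-MyoF, where it was -0.29 over all genes. It was 2.39 in N-MF against N-MyoF, where it was -0.21 over all genes.

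Mfap5 was 9.33-fold higher in M-MF than in M-MyoF (3.22 ± 0.0256, limma adjusted p = 1.51e-17) and Efemp1 8.74-fold (3.13 ± 0.0185, limma adjusted p = 1.75e-18). In normal lungs Fbln2 led, with 29.4-fold higher values in N-MF than in N-MyoF (4.88 ± 0.0292, limma adjusted p = 8.17e-19), while in metastasis the same contrast was 4.55-fold (2.19 ± 0.0292). Eln differed least between the subgroups in metastasis, 1.15-fold higher in M-MF than in M-MyoF (0.21 ± 0.0207, limma adjusted p = 8.54e-07). That value ran from 0.195 to 0.471 over 22 alternatives. In normal lungs Eln was 1.59-fold higher in N-MF than in N-MyoF (0.67 ± 0.0207). Mfap2 and Emilin1 differed by less than 2-fold in both, with 0.71 and 0.74 in metastasis and 0.64 and 0.45 in normal lungs. The ratio of Fbln5 to Eln was 0.416 ± 0.007 in M-MF and 0.427 ± 0.0118 in N-MF, where libraries overlap, and 0.0804 ± 0.0016 in M-MyoF and 0.123 ± 0.0019 in N-MyoF (SD, n = 3).

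**Figure D4:**
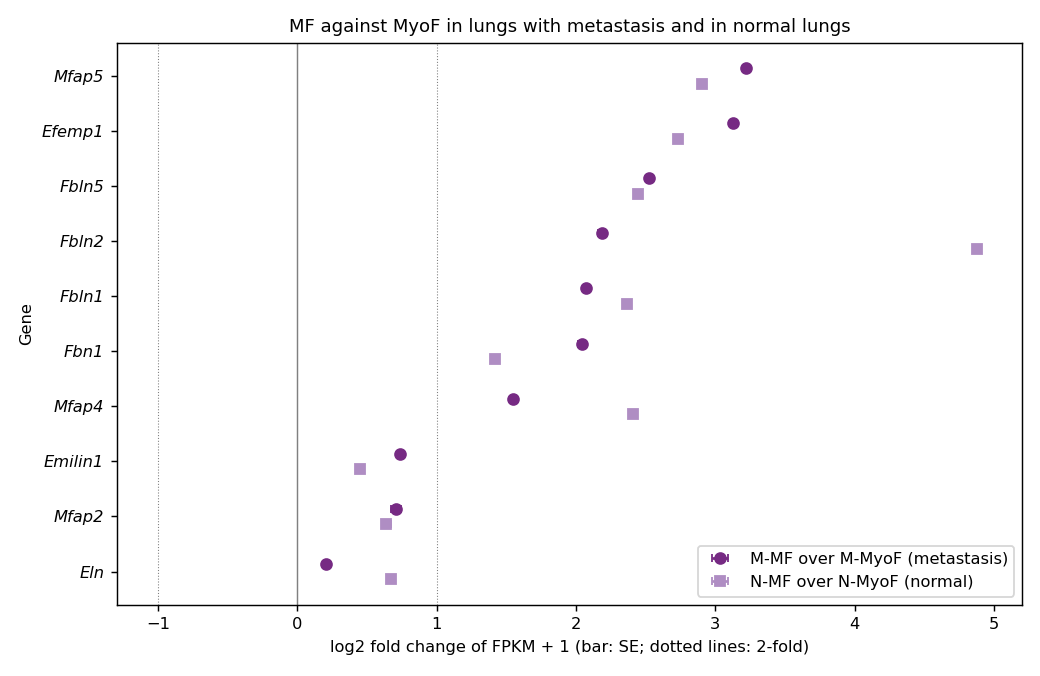
Log2 fold change of FPKM + 1 (x axis, bars are SE) of each gene (y axis) in M-MF over M-MyoF (circles) and N-MF over N-MyoF (squares). All 10 genes lie right of 0 in both; Eln is nearest to 0 in metastasis at 0.21, and Fbln2 is farthest in normal lungs at 4.88.

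Partner genes of the elastic fibre were taken from lists chosen by function, also with earlier results of these data known. Their counts stand beside a background in which 31.8% of all genes fell and 46.3% rose in M-MF, and 31.6% fell and 49.1% rose in M-MyoF. Among 17 tested microfibril partners, 11 fell and 4 rose in M-MF, with a median of -0.39, and 10 fell and 6 rose in M-MyoF, with a median of -0.22. Ltbp4, which tethers latent TGF-beta and, in mice, is needed for normal elastic fibres in the lung, had 101 ± 0.286 FPKM in M-MF against 458 ± 5.3 in N-MF (-2.17 ± 0.0185, limma adjusted p = 7.13e-17). It had 70.3 ± 1.59 FPKM in M-MyoF against 200 ± 1.21 in N-MyoF (-1.49 ± 0.0185). Adamtsl2 and Adamts10, which bind fibrillin microfibrils, fell too, with log2 fold changes of -1.67 ± 0.030 and -1.54 ± 0.023 in M-MF, and of -1.24 ± 0.030 and -1.34 ± 0.023 in M-MyoF. Emilin2, a relative of Emilin1, rose more in MyoF, with 13.8 ± 0.763 FPKM in M-MyoF against 2.12 ± 0.105 in N-MyoF (2.25 ± 0.0411), than in MF (0.38 ± 0.0411), a difference of -1.87 ± 0.0581 (limma adjusted p = 4.06e-11).

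Of the crosslinking and assembly genes, 6 of the 7 rose and 1 fell in M-MF, where 46.3% of all genes rose, with a median of 0.55. In M-MyoF 2 rose and 5 fell, where 31.6% of all genes fell, with a median of -0.22. Lox, the lysyl oxidase that cross-links elastin and collagen, had 166 ± 3.54 FPKM in M-MF against 67.9 ± 1.88 in N-MF (1.28 ± 0.0277, limma adjusted p = 2.43e-13). In M-MyoF it had 39.6 ± 1.06 FPKM against 31.9 ± 0.574 in N-MyoF (0.30 ± 0.0277), a rise that did not pass with quantile normalization (0.015). Of its relatives, Loxl3 rose in both (0.86 and 0.40), and Loxl2 (0.55 and -0.21) and Loxl4 (0.62 and -1.15) rose in M-MF and fell in M-MyoF. The metastasis effect was more positive in MF than in MyoF for 7 of these 7 genes, as it was for 26.4% of all genes.

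Genes of enzymes that can cut elastin and of their inhibitors were also changed. Of 9 tested enzymes 6 rose and 2 fell in each comparison, against 46.3% of all genes up in M-MF and 49.1% in M-MyoF, with medians of 0.39 in M-MF and 0.25 in M-MyoF, the second of which turned to -0.036 with quantile normalization, where 4 rose and 4 fell. Mmp2, a gelatinase and among the most abundant of these genes, named after its values were seen, fell in both. It had 652 ± 8.64 FPKM in M-MF against 1262 ± 29.3 in N-MF (-0.95 ± 0.0233), and 173 ± 3.91 in M-MyoF against 318 ± 7.46 in N-MyoF (-0.87 ± 0.0233). Ctsl, a cathepsin also named after its values were seen, was more abundant than Mmp2 except in N-MF, and rose in both. It had 1419 ± 7.03 FPKM in M-MF against 1086 ± 3.74 in N-MF, and 720 ± 6.14 in M-MyoF against 605 ± 0.551 in N-MyoF. Its log2 fold changes were the list medians above, 0.39 in M-MF and 0.25 in M-MyoF. Mmp9, a gelatinase also made by neutrophils, had 72.7 ± 2.26 FPKM in M-MyoF against 1.87 ± 0.0896 in N-MyoF (4.68 ± 0.043), and 5.85 ± 0.248 in M-MF against 0.633 ± 0.0586 in N-MF (2.07 ± 0.043). Elane, neutrophil elastase, had 5.66 ± 0.203 FPKM in M-MyoF against 0.437 ± 0.166 in N-MyoF, and 0.72 ± 0.175 in M-MF against 0.08 ± 0.0346 in N-MF. The neutrophil proteases Prtn3 and Ctsg had log2 fold changes of 2.14 and 1.62 in M-MyoF and of 0.45 and 0.82 in M-MF. The MF groups overlapped for Prtn3, and Ctsg was listed at 0 in every N-MF library. Beside these stand 8 neutrophil markers, all of which rose in both comparisons, at 13219 to 13570 FPKM in M-MyoF against 134 to 148 in N-MyoF, and 247 to 257 in M-MF against 31.5 to 35.4 in N-MF. Their part in these protease values was not tested.

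Of 7 inhibitors 4 rose and 3 fell in each subgroup, shares near those of all genes (46.3% up and 31.8% down in M-MF, 49.1% and 31.6% in M-MyoF), with medians of 1.63 in M-MF and 2.09 in M-MyoF. Slpi, an inhibitor of neutrophil elastase, had 477 ± 6.92 FPKM in M-MF against 2.16 ± 0.435 in N-MF, and 528 ± 10.3 in M-MyoF against 10.1 ± 1.09 in N-MyoF. Serpina3n, a secreted protease inhibitor, rose by 2.36 and 3.77, Timp1, a metalloproteinase inhibitor, by 2.76 and 3.38 and Serpinb1a, an inhibitor of neutrophil proteases, by 1.63 and 2.09, in M-MF and in M-MyoF. The 3 that fell, named after their values were seen, were Timp3, Cst3 and Timp2. Timp3, a metalloproteinase inhibitor bound to matrix, had 201 ± 2.19 FPKM in M-MF against 728 ± 9.8 in N-MF (-1.85 ± 0.0163), and 269 ± 3.68 in M-MyoF against 488 ± 3.5 in N-MyoF (-0.85 ± 0.0163). Cst3, the cathepsin inhibitor cystatin C, had 2452 ± 16.7 FPKM in M-MF against 5904 ± 60.3 in N-MF (-1.27 ± 0.0119), and 2368 ± 14 in M-MyoF against 3185 ± 25.8 in N-MyoF (-0.43 ± 0.0119). Timp2 had -0.73 and -0.18. Of 11 elastin and microfibril receptors 5 rose and 3 fell in M-MF, and 5 rose and 5 fell in M-MyoF, in M-MF shares near those of all genes. After the rescalings 4, 3 and 3 rose and 4, 4 and 6 fell in M-MF, and their median of 0.073 in M-MF turned negative after each rescaling (-0.013, -0.026 and -0.20). Itga5, the fibronectin receptor subunit that also binds fibrillin-1, rose (0.81 and 0.58), Itgb3 rose (0.54 and 1.36), and Itga8 (-0.82 and -0.49) and Itgb5 (-0.67 and -0.31) fell. Among the TGF-beta genes tested, Tgfb3 fell in M-MF (-1.53 ± 0.0268) and in M-MyoF (-1.31 ± 0.0268). Tgfb2 had -0.033 ± 0.0286 in M-MF, which did not pass (limma adjusted p = 0.3) but passed after the rescalings at -0.14, -0.15 and -0.20, and it fell in M-MyoF (-1.01 ± 0.0286).

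**Figure D5:**
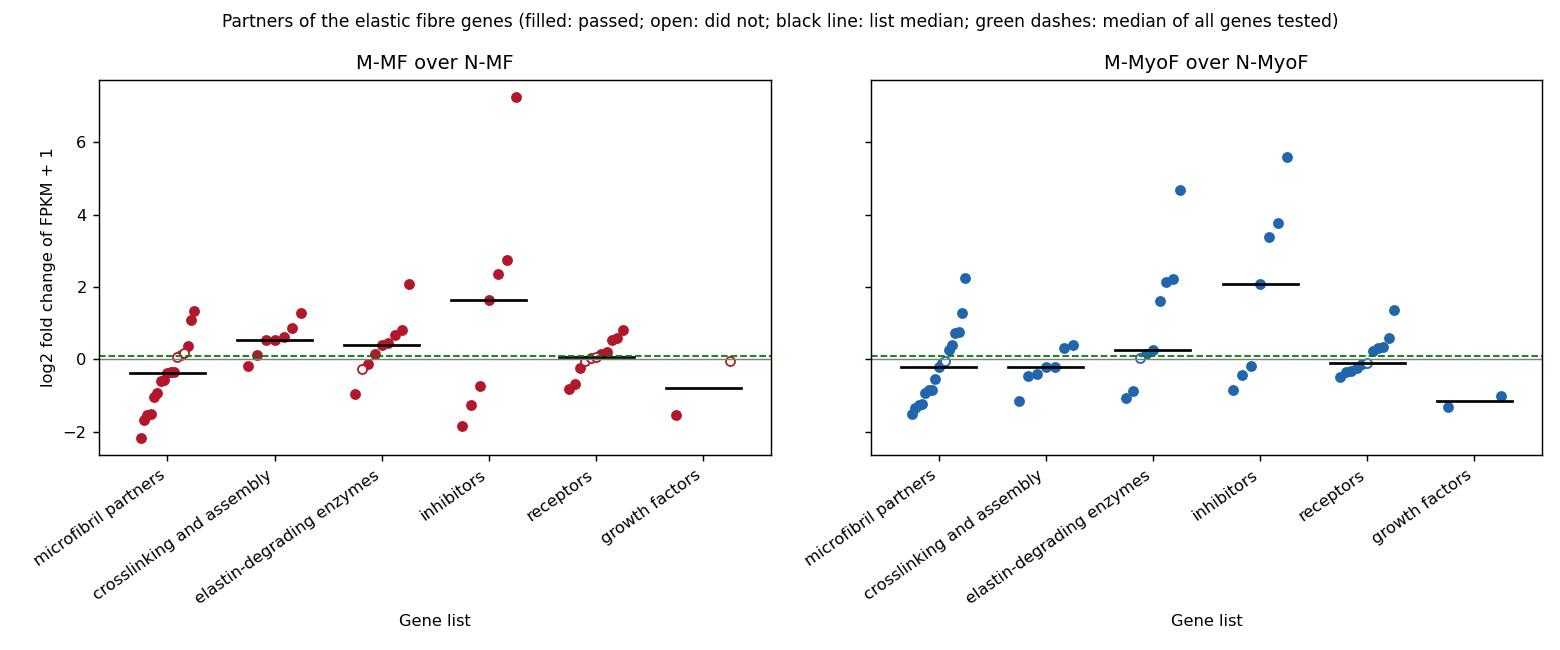
Log2 fold change of FPKM + 1 (y axis) of the tested genes in 6 lists of elastic fibre partners (x axis), in M-MF over N-MF on the left and M-MyoF over N-MyoF on the right. Filled points passed and open points did not; black lines are list medians, such as 0.55 on the left and -0.22 on the right for crosslinking and assembly, and green dashes the medians of all genes tested, 0.082 and 0.11.

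Markers of fibroblast types and other cells also moved, against a background in which 31.8% of all genes fell and 46.3% rose in M-MF. In M-MyoF 31.6% of all genes fell and 49.1% rose. All 5 general fibroblast markers fell in M-MF, and 2 of 5 in M-MyoF, or all 5 after the rescalings. Of 8 adventitial fibroblast markers 7 fell and 1 rose in M-MF, with a sum of 2533 to 2591 FPKM in M-MF against 5124 to 5226 in N-MF. In M-MyoF 5 fell and 2 rose, with 502 to 505 FPKM against 932 to 945 in N-MyoF. Of 8 alveolar fibroblast markers 7 fell in M-MF, with 974 to 991 FPKM against 4181 to 4312 in N-MF. In M-MyoF 8 fell, with 277 to 283 FPKM against 696 to 719 in N-MyoF. Most of each sum was Inmt, with 842 FPKM in M-MF against 3919 in N-MF, and 165 in M-MyoF against 466 in N-MyoF. Col13a1 did not pass in M-MF (3.08 against 3.03 FPKM). The median log2 fold change of the 8 was -0.87 in M-MF and -0.75 in M-MyoF. The adventitial and alveolar sums were lower with metastasis in both subgroups, as were Fbln1, Mfap4, Fbln5 and Eln. The sums of the general fibroblast, myofibroblast and cartilage markers were lower in both subgroups too. The part of any of these cell types in the falls of those genes was not tested.

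Smooth muscle markers summed to 69.6 to 71.1 FPKM in M-MF against 24.9 to 28 in N-MF, and to 732 to 744 in M-MyoF against 535 to 545 in N-MyoF. In M-MF 6 of 7 rose and 1 fell, where 46.3% of all genes rose and 31.8% fell. In M-MyoF 3 rose and 3 fell, near the shares of all genes (49.1% up and 31.6% down). With quantile normalization 3 rose and 1 fell in M-MF, and 2 rose and 5 fell in M-MyoF. Cartilage markers fell in 7 of 7 tested cases in M-MyoF, to 24.4 to 25.3 FPKM against 311 to 318 in N-MyoF. In M-MF 6 of 7 fell, to 8.18 to 8.84 FPKM against 19.4 to 19.8 in N-MF, with Col9a1 and Matn1 at 0 in all 3 M-MF libraries. Mesothelial markers rose in 7 of 7 tested cases in both, to 207 to 215 FPKM in M-MyoF against 82.3 to 83 in N-MyoF, and to 243 to 248 in M-MF against 6.76 to 7.05 in N-MF. The mesothelial, neutrophil, smooth muscle and endothelial sums were higher in M-MyoF than in N-MyoF, as Fbln2 was. These sums were also higher in M-MF than in N-MF, where Fbln2 fell (-0.14). The part of any of them in the changes of Fbln2 was not tested. Pericyte markers summed to 44.2 to 47.5 FPKM in M-MF against 58.7 to 62.7 in N-MF, and to 600 to 627 in M-MyoF against 595 to 610 in N-MyoF. Endothelial markers summed to 217 to 221 FPKM in M-MF against 161 to 164 in N-MF, and to 457 to 465 in M-MyoF against 382 to 393 in N-MyoF. Of the 7, 5 rose and 2 fell in M-MF, and 4 rose and 3 fell in M-MyoF. Cldn5 was the largest part of each sum, with 149 FPKM in M-MF against 73.8 in N-MF, and 316 in M-MyoF against 243 in N-MyoF. Tek and Kdr fell in both, Tek to 16.4 in M-MF against 48.2 in N-MF, and 16.6 in M-MyoF against 31.9 in N-MyoF. Of the 8 myofibroblast markers 5 fell and 3 rose in M-MF, and 6 fell and 2 rose in M-MyoF. Acta2 rose in both although the sums fell, to 79.7 FPKM in M-MF against 24 in N-MF, and 949 in M-MyoF against 628 in N-MyoF. Tagln rose in both too, to 28.2 in M-MF against 10.8 in N-MF, and 439 in M-MyoF against 292 in N-MyoF. The largest falls in FPKM were those of Tgfbi in M-MF (39.4 against 334) and Hhip in M-MyoF (787 against 2231).

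Genes with a pattern over the 4 groups like that of Eln were sought among 9576 others by the root-mean-square difference of centred log2 group means. The nearest were Rarg, a retinoic acid receptor, at 0.0316, Rab23, a small GTPase, at 0.0347, and Ndn, which encodes necdin, at 0.0431. Rarg had 31.4 FPKM in M-MF, 61.9 in N-MF, 27.6 in M-MyoF and 37.1 in N-MyoF. Nearest to Fbn1 were Slc12a8 at 0.0767, Gpx7, an endoplasmic reticulum peroxidase, at 0.107, and Layn, which encodes the hyaluronan receptor layilin, at 0.111. Among the 10 genes themselves, Mfap2 and Emilin1 were the closest pair, at 0.208, followed by Fbln1 and Mfap4 at 0.266, and Eln and Fbln2 the farthest apart, at 1.91. These are descriptions over 4 group means.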

How the data were processed

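Values are FPKM that the authors computed from RNA sequencing and deposited, rounded to 2 decimals, 1 column per library, per the file headers and the values. Trizol RNA with polyA tails was reverse-transcribed by a SMART-seq2 method and made into libraries with a transposase, per the labels' protocols. Per the submitters' processing notes the build was GRCm38. For aligner, counter, annotation and sorting the entry is "not given in the sources used here". SMART-seq2 keeps no strand. With no depth on record, precision rests on the agreement of 3 libraries.

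Log2(FPKM + 1) was fitted in R 4.3.3 with limma 3.58.1 over the 13300 genes that reached 1 FPKM in 3 or more libraries, and all 10 members passed this filter. One model of 4 group means with a mean-variance trend gave 5 contrasts, with Benjamini-Hochberg adjustment over all genes and a threshold of 0.05. Every fold change is on that log2(FPKM + 1) scale, which understates low genes. The code was tested on simulated data. Tables and figures used Python 3.11.15, pandas 2.3.3, numpy 2.4.6 and matplotlib 3.10.9.

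The numbers 1 to 3 in the titles have no stated meaning. Over 1830 genes with a mean of 50 FPKM or more, deviations from group means correlated at 0.482 to 0.796 for 18 pairs with the same number and at -0.683 to 0.38 for 36 other pairs. The numbers were therefore taken to pair the libraries, and a fit with a block for the number was run beside each comparison. Members, partner lists and markers were chosen with earlier results of these data known. Up to 4 partners per list were named by their largest change, and 3 genes per pattern. Alternatives covered pseudocounts, filters, 3 rescalings, the fitted groups and left-out libraries. Positions and promoters are RefSeq's, joined by gene number, and 7 of the 10 members had a promoter.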

Additional observations from a re-analysis of the deposited data

Results flagged for a closer look

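The metastasis effect differed between MF and MyoF, by limma's test of the difference of the log2 fold changes, for 9 of the 10 genes, as it did for 64.4% of all genes tested. The effect in MF minus that in MyoF was -2.69 for Fbln2, -0.86 for Mfap4, -0.47 for Eln and -0.29 for Fbln1. It was 0.63 for Fbn1, 0.39 for Efemp1, 0.32 for Mfap5, 0.29 for Emilin1 and 0.078 for Fbln5. For Fbln2 and Fbn1 the effect passed with opposite signs in the subgroups, while Mfap4, Eln, Fbln1 and Mfap5 fell in both and differed in size. Fbln5 fell in both too, but its difference did not pass under 8 of 21 alternatives and changed sign without passing under 1 more.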

How the results depend on the processing

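Counts of members that passed were within 1.5 times the reported ones under 22 alternatives with 1 exception. With the library number as a block, 2 members instead of 1 were higher in M-MyoF than in N-MyoF, since Emilin1 passed (0.037); the block changed no other member's call. Of 1090 member values recomputed, 4 reversed sign: Emilin1 in M-MyoF against N-MyoF, at -0.15 with equal sums per library, -0.15 with median-ratio scaling and -0.24 with quantile normalization, and the Fbln5 difference of effects, at -0.023 with a pseudocount of 5. The cause was not tested. Those rescalings moved the median of all genes in M-MyoF against N-MyoF to -0.06, -0.05 and -0.11, against 0.11 as deposited, and in M-MF against N-MF to -0.01, -0.02 and -0.10, against 0.082. Relative to the deposited medians the changes were -1.05 for Eln, 0.37 for Fbn1, -0.22 for Fbln2 and 0.24 for Emilin1 in M-MF, and 2.44 for Fbln2, -0.28 for Fbn1 and -0.069 for Emilin1 in M-MyoF. Efemp1 also passed as lower in M-MyoF under the rescalings, so that 9 members were lower there. The rescaling of the partner and marker lists was chosen after seeing the data. Depth is unknown, so changes of a few percent rest on the closeness of 3 libraries.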

Other observations

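Some partner genes outside the naming rule stood out once their values were seen. Efemp2, whose protein fibulin-4 brings lysyl oxidase to tropoelastin, rose in both subgroups while Eln fell, with 241 ± 6.41 FPKM in M-MF against 113 ± 3.14 in N-MF (log2 fold change 1.09 ± 0.0315), and 99.4 ± 1.65 in M-MyoF against 58.9 ± 2.41 in N-MyoF (0.75 ± 0.0315). Loxl1, a lysyl oxidase of elastic fibres, fell, with 299 ± 2.82 FPKM in M-MF against 339 ± 2.19 in N-MF (log2 fold change -0.18). In M-MyoF it had 80.2 ± 1.7 FPKM against 111 ± 1.88 in N-MyoF (-0.46). The latent TGF-beta binding protein genes moved apart. Ltbp1 rose in M-MyoF, with 53.4 ± 1.24 FPKM against 21.6 ± 0.549 in N-MyoF (1.27 ± 0.0259), and fell in M-MF (-0.36 ± 0.0259). Ltbp2 rose in M-MF, with 9.09 ± 0.451 FPKM against 3.01 ± 0.105 in N-MF (1.33 ± 0.0351), and stood at 35.9 ± 0.522 FPKM in M-MyoF against 38.7 ± 0.533 in N-MyoF. Fbn2, the fibrillin of development, did not reach the expression filter.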
